A study of Mus musculus with 2 samples.

Results

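The genes described here are 46 cell cycle genes: 17 that act around DNA replication in S phase and 29 that act in G2 phase and mitosis. They were taken as a list of names, with no cut on their values but with earlier results of these data known. All 46 were among the 21745 genes counted in both libraries. They are followed through 5 classes of heart cells, fibroblast, macrophage, endothelial, mural (pericytes and smooth muscle) and lymphoid, each gated by marker genes that include no cell cycle gene.

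Cells came from hearts of male wild-type C57BL6/J mice of 8 to 10 weeks and were profiled by Drop-seq, a droplet method that counts each captured mRNA molecule by a unique molecular identifier (UMI). The MI library came from 1 heart, 14 days after its left anterior descending artery had been tied off permanently. The sham library pooled 4 hearts, 14 days after the same operation with the ligature left loose. With 1 library per condition there is no test between conditions: the 95% intervals below cover counting error only, and differences between animals or preparations cannot be told apart from the difference between infarct and sham.

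Before a cell divides it copies its DNA and then separates the copies. In S phase the MCM helicase (Mcm2 to Mcm7), loaded by Cdc6 and completed by the GINS complex (Gins2), opens the double strand, the clamp Pcna holds the polymerases, and Rrm1, Rrm2, Tyms, Tk1 and Dut serve nucleotide supply; many of their genes are classical targets of E2F factors. In G2 and mitosis, cyclins A and B with Cdk1 drive the cell into division and a spindle pulls the chromosomes apart. Many of these late genes are known to be held silent in resting cells, and switched on late, through a CHR element bound by the DREAM and MuvB complexes and CCAAT boxes bound by NF-Y. After an infarct, heart fibroblasts are known to divide for some days and to form the scar, and macrophages both divide locally and enter from the blood.

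Because the late and early genes are known for different promoter elements, 6 promoters are printed first, 4 of late genes with both a CHR and CCAAT boxes and 2 of early genes. Each line holds the 120 bases just before the gene's start in RefSeq (build GRCm38.p6), 5′ to 3′ on the gene's strand. Capitals mark a CHR, which reads TTTGAA on one strand and TTCAAA on the other, a CCAAT box, which reads CCAAT on one strand or, seen from the other strand, ATTGG, or an E2F site. The late genes are Cdc20 (chr4:118437344-118437463, minus strand), Cdk1 (chr10:69352913-69353032, minus strand), Top2a (chr11:99024190-99024309, minus strand) and Ube2c (chr2:164769809-164769928, plus strand). The early genes are Mcm6 (chr1:128359706-128359825, minus strand), with E2F sites and CCAAT boxes, and Pcna (chr2:132253181-132253300, minus strand), with a CCAAT box alone in this stretch.
Cdc20: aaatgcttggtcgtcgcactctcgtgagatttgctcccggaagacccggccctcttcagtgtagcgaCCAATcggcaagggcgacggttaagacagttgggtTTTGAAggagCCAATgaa
Cdk1: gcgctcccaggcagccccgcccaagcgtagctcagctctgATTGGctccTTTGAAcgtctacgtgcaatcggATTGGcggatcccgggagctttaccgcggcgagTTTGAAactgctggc
Top2a: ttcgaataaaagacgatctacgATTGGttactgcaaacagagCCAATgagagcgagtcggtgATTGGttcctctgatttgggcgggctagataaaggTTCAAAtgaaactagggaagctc
Ube2c: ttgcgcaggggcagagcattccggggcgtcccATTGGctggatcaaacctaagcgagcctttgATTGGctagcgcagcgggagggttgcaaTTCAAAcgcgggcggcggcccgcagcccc
Mcm6: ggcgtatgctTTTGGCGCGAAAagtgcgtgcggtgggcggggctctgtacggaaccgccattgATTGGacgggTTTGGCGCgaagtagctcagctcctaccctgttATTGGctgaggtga
Pcna: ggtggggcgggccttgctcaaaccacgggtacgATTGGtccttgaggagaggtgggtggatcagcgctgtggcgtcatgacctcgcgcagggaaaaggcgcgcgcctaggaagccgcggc

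In Cdc20 the CHR begins 18 bases before the start and the CCAAT boxes 53 and 8 bases before it. Ube2c has its CHR at 29 and CCAAT boxes at 88 and 57 bases before the start. Top2a has its CHR at 23 and CCAAT boxes at 98, 78 and 58 bases before the start. Cdk1 has a CHR at 71 and at 15, and CCAAT boxes at 80 and 48. In these 4 late genes a CHR thus lies between a CCAAT box and the start. In Mcm6, E2F sites begin at 110, at 106 on the other strand and overlapping the first, and at 47 bases before the start.

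Promoters of 300 bases, 250 before and 50 after the start, were matched for 25 of the 29 G2/M genes and 14 of the 17 S genes and searched on both strands. A CHR was present for 19 G2/M genes (76%) and 1 S gene (7.14%, Mcm2), against 20.2% of 27025 genes. A CCAAT box was present for 22 G2/M genes (88%), 9 S genes (64.3%) and 41.1% of all genes. Both stood together for 72% of the G2/M genes, 7.14% of the S genes and 7.97% of all genes. An E2F site, searched as TTTGGCGC, TTTCCCGC, TTTCGCGC or TTTGCCGC, was present for 1 G2/M gene (4%, Cdk1), for 5 S genes (35.7%: Cdc6, Mcm3, Mcm5, Mcm6 and Mcm7) and for 2.60% of all genes. These matches describe letters, not binding.

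**Figure D1:**
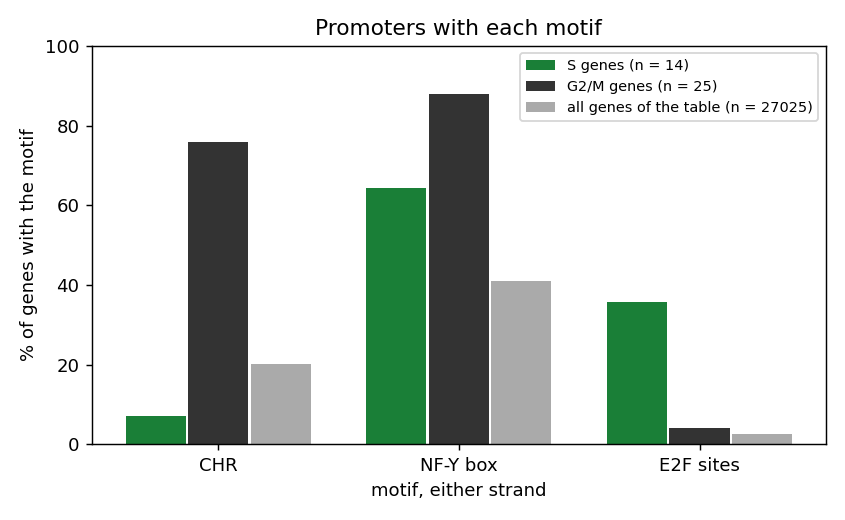
Share of genes (vertical axis, %) whose 300-base promoter holds a CHR, a CCAAT (NF-Y) box or an E2F site on either strand, for 14 S genes, 25 G2/M genes and all 27025 genes of the promoter table. The CHR bar is highest for G2/M genes (76%) and the E2F bar for S genes (35.7%).

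The MI library held 8555 cell barcodes and 33275336 UMIs, and the sham library 6337 barcodes and 11307405 UMIs; 5 barcodes occurred in both. After removal of cells with over 25% mitochondrial UMIs and of called doublets, 8294 MI and 5969 sham cells remained, and 87.7% and 93.3% of them fell into the 5 classes. Fibroblast-gated cells numbered 2615 in MI and 1842 in sham, macrophage-gated cells 3786 and 1423, endothelial-gated cells 468 and 2145, mural-gated cells 177 and 95, and lymphoid-gated cells 227 and 64. Depth differed with condition: the median fibroblast-gated cell held 5148 UMIs in MI and 1489 in sham, the median endothelial-gated cell 3317.5 and 1298, and the median mural-gated cell 6284 and 1080. Macrophage-gated (1695.5 and 1359) and lymphoid-gated cells (1317 and 1312) were closer in depth.

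Every marker of each class (12 fibroblast, 13 macrophage, 12 endothelial, 9 mural, 18 lymphoid) had UMIs in its own class in both libraries. Markers of other cells were present too. Summed fibroblast markers stood at 1307 UMIs per 1000000 UMIs of the class (CPM) in MI and 680.0 CPM in sham mural-gated cells, and at 1365 and 403 CPM in endothelial-gated cells. Summed endothelial markers stood at 282 CPM in MI and 2159 CPM in sham mural-gated cells, and the pericyte gene Rgs5 at 2874 and 17567 CPM. Summed macrophage markers stood at 217 and 161 CPM in fibroblast-gated cells and at 1373 and 969.8 CPM in lymphoid-gated cells. The part of these other markers in the results was not tested. Sums of a class's own markers differed between the libraries too. In MI and sham they were 4358 and 23277 CPM for mural-gated, 6434 and 24068 CPM for fibroblast-gated and 24698 and 5371 CPM for lymphoid-gated cells. The median lymphoid-gated cell had 4594 CPM in MI and 5239 CPM in sham, so the MI lymphoid sum does not describe the typical cell. The sums were closer in macrophage-gated (23866 and 29525 CPM) and endothelial-gated cells (6202 and 7448 CPM). The collagen gene Col1a2 stood at 9214 and 669 CPM in mural-gated cells.

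A class here is a range of a marker score and not a separate population: 371 of the 2615 MI fibroblast-gated cells and 21 of the 177 MI mural-gated cells lay near the limit of the gate, as did 22 of the 95 sham mural-gated cells and 16 of the 1842 sham fibroblast-gated cells. When the cells were clustered instead, without the 46 genes, sham fibroblasts filled cluster 2 (1853 sham and 5 MI cells) and MI fibroblasts clusters 4, 5, 7 and 13 (1232, 1080, 780 and 215 MI cells, with 2, 0, 4 and 2 sham cells). Macrophages lay mostly in clusters 0 and 6 in MI (2414 and 1020 cells) and in cluster 3 in sham (1343 cells). Endothelial cells of MI lay mostly in clusters 8 and 11 (225 and 235), and those of sham mostly in cluster 1 (1887). Cluster 8 also held 171 sham cells and was thus shared, while cluster 11 held 6. Mural cells of both libraries shared cluster 9 (142 MI and 191 sham cells), and lymphoid cells shared clusters 14 and 16. The mural gate took 177 MI and 95 sham cells, so gate and cluster did not take the same mural cells. A fibroblast or macrophage class, and in part an endothelial class, therefore compares cells that differ in many other genes as well.

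Summed over the 29 genes, the G2/M program differed most between the libraries in fibroblast-gated cells. It stood at 1651 CPM (1631 to 1671) for MI against 147 CPM (134 to 161) for sham (log2 3.49, 3.35 to 3.63). In mural-gated cells it stood at 4494 CPM (4379 to 4612) for MI against 1571 CPM (1396 to 1762) for sham (log2 1.52, 1.35 to 1.69). The MI value was the highest of the 10 groups of cells. In sham 4 mural-gated cells held 90.7% of the G2/M UMIs of the class, and intervals from UMI counts do not cover that. Macrophage-gated cells had 1822 CPM for MI against 1017 CPM for sham (log2 0.84, 0.78 to 0.91), and endothelial-gated cells had 1875 CPM for MI against 1326 CPM for sham (log2 0.50, 0.44 to 0.56). In lymphoid-gated cells the MI value was the lower one, 1103 CPM for MI against 1549 CPM for sham (log2 -0.49, -0.75 to -0.22). Sham fibroblast-gated cells thus stood below the other 9 groups, the lowest of which, sham macrophage-gated cells, had 1017 CPM.

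The S genes differed less, except in mural-gated cells. In fibroblast-gated cells their sum was 501 CPM (490.3 to 513) for MI against 247 CPM (229.8 to 265) for sham (log2 1.02, 0.91 to 1.13). In mural-gated cells it was 889 CPM (838 to 942) for MI against 292 CPM (219 to 380.4) for sham (log2 1.61, 1.21 to 2.03). Macrophage-gated cells had 503 CPM for MI against 484 CPM for sham (log2 0.05, -0.04 to 0.15), and endothelial-gated cells 552 CPM for MI against 515 CPM for sham (log2 0.10, 0.00 to 0.21), so in these classes counting error alone covers the difference or nearly does. Lymphoid-gated cells had 693 CPM for MI against 914 CPM for sham (log2 -0.40, -0.74 to -0.05). Fewer dividing cells and fewer transcripts per dividing cell cannot be told apart in such sums, and cell counts follow below.

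**Figure D2:**
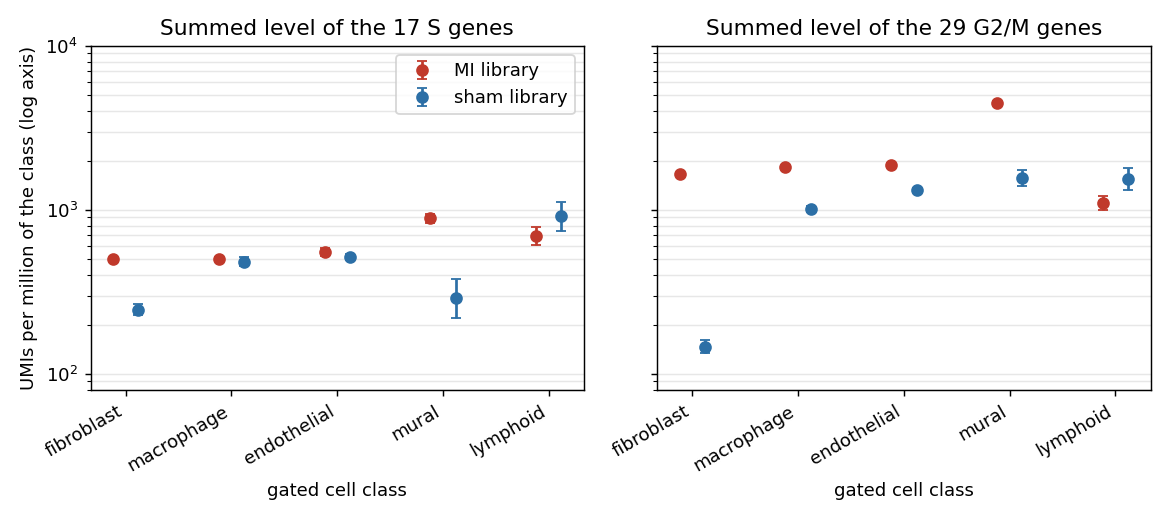
Summed level of the S genes (left) and the G2/M genes (right) in each gated class, in UMIs per 1000000 UMIs of the class on a log axis, MI in red and sham in blue; bars are exact Poisson 95% intervals and cover counting error only. The lowest G2/M point is sham fibroblast (147 CPM) and the highest is MI mural (4494 CPM).

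The balance of the programs also set the sham fibroblast-gated cells apart. They held 0.595 (0.529 to 0.670) G2/M UMIs for each S UMI, while the other 9 groups held from 1.59 (MI lymphoid) to 5.39 (sham mural). MI fibroblast-gated cells held 3.29 (3.21 to 3.38). The quotient was 3.62 in MI and 2.10 in sham macrophage-gated cells, and 3.39 and 2.57 in endothelial-gated cells, with intervals that do not overlap. In mural-gated cells it was 5.06 (4.74 to 5.40) in MI and 5.39 (4.02 to 7.35) in sham, and in lymphoid-gated cells 1.59 and 1.69, with intervals that overlap.

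For cell counts every cell was thinned to 500 UMIs, and a cell was counted when it then held at least 2 UMIs from at least 2 genes of a list. By the G2/M genes 282 MI fibroblast-gated cells counted, 10.8% (9.62 to 12.0), and 5 sham ones, 0.271% (0.0882 to 0.632) (exact Clopper-Pearson intervals). In mural-gated cells 56 MI cells, 31.6% (24.9 to 39.0), and 4 sham cells, 4.21% (1.16 to 10.4), counted. These are the classes in which the cell shares of the libraries lie farthest apart, with intervals that do not overlap. Mural cells taken from cluster 9 had G2/M shares of 21.8% in MI and 3.14% in sham. The shares in MI and sham were 9.06% (8.16 to 10.0) and 4.36% (3.36 to 5.55) in macrophage-gated cells, 7.91% (5.63 to 10.7) and 4.62% (3.77 to 5.59) in endothelial-gated cells, and 4.85% (2.44 to 8.50) and 6.25% (1.73 to 15.2) in lymphoid-gated cells, the last from 11 and 4 cells. No class is known to lack these genes, and the lowest share, in sham fibroblast-gated cells at 500 UMIs per cell, comes from cells with a median of 1489 UMIs before thinning.

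The shares of cells counted by S genes were lower than the G2/M shares in macrophage-gated, endothelial-gated and mural-gated cells and in MI fibroblast-gated cells, and higher in sham fibroblast-gated cells and in lymphoid-gated cells of both libraries. The S and G2/M intervals overlap in sham fibroblast-gated, sham mural-gated and all lymphoid-gated cells. Cells counted by S genes made up 2.75% (2.16 to 3.45) of MI and 0.760% (0.416 to 1.27) of sham fibroblast-gated cells, and 7.91% (4.39 to 12.9) and 3.16% (0.656 to 8.95) of mural-gated cells. Macrophage-gated cells had 2.64% and 2.25%, endothelial-gated cells 2.99% and 2.75%, and lymphoid-gated cells 5.29% (2.76 to 9.05) and 10.9% (4.51 to 21.2). Without thinning, depth enters the shares. S genes then marked 45.9% of MI and 5.32% of sham fibroblast-gated cells, and G2/M genes 36.9% and 1.19%. Unthinned G2/M shares were 19.3% and 8.08% in macrophage-gated, 27.8% and 8.39% in endothelial-gated, 66.7% and 8.42% in mural-gated, and 16.7% and 7.81% in lymphoid-gated cells.

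**Figure D3:**
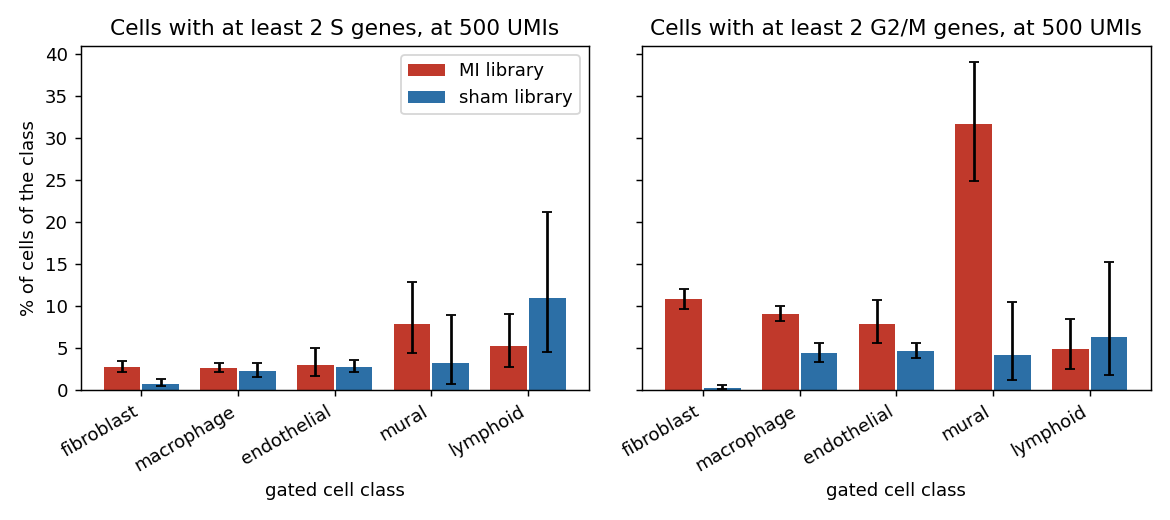
Share of the cells of each class (vertical axis, %) with at least 2 UMIs from at least 2 S genes (left) or G2/M genes (right) after thinning to 500 UMIs, MI in red and sham in blue; bars are exact Clopper-Pearson 95% intervals. The G2/M share is 31.6% in MI mural cells and 0.271% in sham fibroblast cells.

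G2/M transcripts were packed into few cells, and S transcripts were spread over more. The fewest cells that held at least as many G2/M UMIs as all the rest made up 2.56% of MI fibroblast-gated cells. For S UMIs this value was 9.83%. In MI macrophage-gated cells the values were 2.32% and 6.13%, and in sham endothelial-gated cells 1.21% and 5.50%. The cells below were counted by their G2/M UMIs, which by itself raises their G2/M share over their S share. The 282 counted MI fibroblast-gated cells held 78.3% of the G2/M UMIs of their class and 27.8% of its S UMIs. The 343 counted MI macrophage-gated cells held 81.8% and 35.0%, and the 99 counted sham endothelial-gated cells 85.4% and 29.4%. In the sham mural class 4 cells held 90.7% of the G2/M UMIs. The sham mural G2/M sum, quotient, levels and intervals, above and below, thus rest on very few cells. These 4 held none of the S UMIs of the class. In the sham lymphoid class, too, 4 cells held 88.0% of the G2/M UMIs, so its G2/M levels and intervals rest on few cells. Of the 72 MI fibroblast-gated cells counted by S genes, 28 (38.9%, 27.6 to 51.1) were also counted by G2/M genes. In cells that did not count, the G2/M genes stood between 377 and 1187 CPM in the MI classes and between 89.7 and 217 CPM in the sham classes; the part of free RNA in that remainder was not tested.

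In fibroblast-gated cells all 29 G2/M genes had at least 20 UMIs over both libraries, and 29 of the 29 were at least 2-fold higher in MI, as were 13.0% of the 13505 genes with as many UMIs. Their median log2 ratio was 3.61, beside -0.22 over all those genes, and they ran from Cks1b at 1.68 to Bub1, a spindle checkpoint kinase, at 5.36. Of the 17 S genes 10 were at least 2-fold higher and 0 at least 2-fold lower, a change shown by 19.9% of all genes, and their median was 1.67. Among cells of at most 3000 UMIs, a limit chosen after seeing the data to bring the depths together (599 MI and 1719 sham cells), the G2/M sum had a log2 ratio of 3.54 and all 21 G2/M genes with 20 UMIs were at least 2-fold higher. The S sum there had a log2 ratio of 0.72, with 4 of 10 S genes at least 2-fold higher and 1 lower. The shares over all genes were not computed for this subset.

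Top2a, the topoisomerase that untangles sister DNA, stood at 157 CPM (150.4 to 163) for MI against 16.6 CPM (12.3 to 21.8) for sham (log2 3.24, 2.84 to 3.67). Mki67, a coat protein of mitotic chromosomes widely used to mark dividing cells, stood at 152 CPM (146 to 158) for MI against 6.17 CPM (3.71 to 9.63) for sham (log2 4.62, 3.98 to 5.36). Both had their lowest level of the 10 groups in sham fibroblast-gated cells. At the centromere, Cenpe, the motor that brings chromosomes to the spindle equator, stood at 165 CPM for MI against 9.09 CPM for sham (log2 4.18, 3.65 to 4.78). Cenpf, a kinetochore protein, stood at 118 CPM for MI against 13.6 CPM for sham (log2 3.11, 2.67 to 3.59). Cenpa, the centromeric histone, and Birc5 (survivin), of the chromosomal passenger complex, had log2 ratios of 3.39 and 4.70.

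Spindle genes were likewise higher in MI fibroblast-gated cells. Prc1, which bundles the microtubules of the central spindle, was at 74.8 and 7.79 CPM (log2 3.26, 2.68 to 3.91), and Hmmr, a spindle assembly factor, at 72.5 and 3.57 CPM (log2 4.34, 3.50 to 5.35). The other 7 genes of this role lay between 2.80 (Kif11, the motor that separates the spindle poles) and 4.98 (Kif23, a motor of the midbody). Cdc20 and Ube2c, which work with the anaphase-promoting complex, summed to 98.4 CPM for MI against 6.17 CPM for sham (log2 4.00, 3.35 to 4.73). The 6 mitotic kinases summed to 58.7 CPM for MI against 4.55 CPM for sham (log2 3.69, 2.94 to 4.57); Aurka and Bub1 rested on 1 sham UMI each, Aurkb and Plk1 on 2 and Ttk on 3.

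The cyclin genes and their partners split. The mitotic cyclins Ccnb1 and Ccnb2, cyclin A (Ccna2) and Cdk1 had log2 ratios of 3.61, 4.67, 3.01 and 4.12. Cks2, a small partner of Cdk1, was at 74.0 and 6.17 CPM (log2 3.58, 2.93 to 4.32), whereas its paralog Cks1b, which also serves the destruction of the inhibitor p27, was at 77.8 and 24.3 CPM (log2 1.68, 1.34 to 2.03). Cks1b was the least unequal of the 29; 75 of the 453 G2/M UMIs of sham fibroblasts were its own.

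Within the S list of fibroblast-gated cells, nucleotide genes differed more between the libraries than the helicase. The 5 nucleotide genes summed to 253 CPM for MI against 58.1 CPM for sham (log2 2.12, 1.90 to 2.35), and 5 of the 5 were at least 2-fold higher. Dut, which clears dUTP, stood at 89.3 and 18.5 CPM (log2 2.27, 1.89 to 2.68), Tyms, which makes thymidylate, at 60.5 and 14.3 CPM (log2 2.08, 1.65 to 2.55), and Rrm1, the large subunit of ribonucleotide reductase, at 60.3 and 18.2 CPM (log2 1.73, 1.34 to 2.14). The 6 MCM genes summed to 85.6 CPM for MI against 57.1 CPM for sham (log2 0.58, 0.35 to 0.82), and 2 of the 6, Mcm5 (2.08) and Mcm2 (1.36), were at least 2-fold higher. Mcm6 stood at 22.9 and 12.7 CPM (log2 0.85, 0.37 to 1.37). The intervals of the nucleotide and the MCM sums do not overlap; their difference was not tested.

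The other S genes of fibroblast-gated cells covered a wide range. Pcna, which also serves DNA repair, measured 78.0 CPM (73.7 to 82.5) for MI against 62.7 CPM (54.1 to 72.1) for sham (log2 0.32, 0.10 to 0.54). Slbp, which binds the stem-loop of histone mRNAs, was lower in MI, 42.5 and 56.5 CPM (log2 -0.41, -0.65 to -0.16). Mcm4 (log2 -0.18, -0.61 to 0.28) and the licensing factor Cdc6 (log2 -0.73, -1.63 to 0.26) also lay below 0, with intervals that hold 0. Gins2 lay at 2.40, and the E cyclins, which start S phase with Cdk2, at 1.67 (Ccne2) and 4.25 (Ccne1, from 1 sham UMI, 1.74 to 9.57). Pcna and Slbp supplied 193 and 174 of the 761 S UMIs of sham fibroblasts. Scaling by the median of gene ratios raises every fibroblast log2 value by 0.23, which puts Mcm4 above 0 and leaves Slbp and Cdc6 below it. The same scaling adds 0.15 to mural and 0.14 to lymphoid values, and turns no list sum of the 5 classes.

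In macrophage-gated cells 13 of the 29 G2/M genes were at least 2-fold higher in MI and 0 lower, beside 9.07% and 12.0% of 11634 genes. Their median log2 ratio was 0.91, over all genes -0.12. Mki67 stood at 270.4 CPM (259 to 283) for MI against 159.6 CPM (143 to 177) for sham (log2 0.76, 0.60 to 0.93), and Top2a at 259 and 155 CPM (log2 0.74, 0.57 to 0.91). The role with the highest ratio of sums was the centromere and passenger group (1.25): Cenpe was at 202 and 76.0 CPM (log2 1.41, 1.18 to 1.65) and Birc5 at 80.1 and 34.1 CPM (log2 1.23, 0.88 to 1.60), and Cenpa and Cenpf had log2 ratios of 1.65 and 0.93. Prc1 and Hmmr lay at 0.91 and 1.28, and Plk1, the kinase of mitotic entry, had the highest ratio, 1.96 (0.67 to 3.63), from 5 sham UMIs.

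In the same cells 3 G2/M genes lay below 0 with intervals that hold it. Stmn1, which destabilizes microtubules, was at 104 and 112 CPM (log2 -0.12, -0.33 to 0.10). Kif23 (log2 -0.09, -0.41 to 0.25) and the checkpoint kinase Ttk (log2 -0.24, -1.12 to 0.71) were the others. Scaling by the median of gene ratios adds 0.12 to each macrophage value, which puts Stmn1 and Kif23 at or above 0.

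The S genes of macrophage-gated cells split by role. The 6 MCM genes summed to 118 CPM for MI against 149 CPM for sham (log2 -0.33, -0.51 to -0.14), the lower value being that of MI. Mcm6 stood at 32.6 and 46.4 CPM (log2 -0.51, -0.85 to -0.16), Mcm3 at 26.7 and 35.5 CPM (log2 -0.41, -0.79 to -0.01), and Mcm7 and Mcm5 at log2 ratios of -0.58 and -0.78, while Mcm2 and Mcm4 lay above 0 at 0.29 and 0.47 with intervals that hold it. The nucleotide genes were higher in MI as a sum, 126 CPM for MI against 77.8 CPM for sham (log2 0.70, 0.46 to 0.94). Among them Rrm2, the small subunit of ribonucleotide reductase (1.48), and thymidine kinase Tk1 (1.11) were the 2 S genes at least 2-fold higher in MI. Dut was at 27.5 and 16.8 CPM (log2 0.71, 0.20 to 1.26) and Rrm1 at 34.1 and 27.3 CPM (log2 0.32, -0.09 to 0.75). Pcna was nearly level at 154 and 142 CPM (log2 0.12, -0.07 to 0.30), Slbp was lower in MI at 60.8 and 76.0 CPM (log2 -0.32, -0.58 to -0.06), and Ccne2 (-0.10) and Cdc6 (-0.18) had intervals that hold 0.

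In endothelial-gated cells 3 of 29 G2/M genes and 2 of 16 S genes with enough UMIs were at least 2-fold higher in MI, and 0 were lower. Of 11643 genes 11.9% were as much higher, a share near that of the members, and 14.2% as much lower. Top2a stood at 239 CPM (219 to 261) for MI against 166 CPM (153 to 179) for sham (log2 0.53, 0.36 to 0.70). Mki67 was at 182 and 170.2 CPM (log2 0.09, -0.09 to 0.28), Cenpf at 154 and 148 CPM (log2 0.06, -0.13 to 0.26) and Prc1 at 89.9 and 87.3 CPM (log2 0.04, -0.22 to 0.30), each with an interval that holds 0, as has Stmn1 (0.20). Endothelial-gated cells of sham hearts thus held these last 4 genes at levels that counting alone does not separate from MI.

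The endothelial members that differed by 2-fold or more were Cks1b (82.3 and 17.4 CPM (log2 2.24, 1.83 to 2.67)), Cdk1 (65.4 and 28.0 CPM (log2 1.22, 0.85 to 1.60)) and Birc5 (74.3 and 36.8 CPM (log2 1.01, 0.68 to 1.35)) of the G2/M list and Tyms (81.4 and 27.7 CPM (log2 1.55, 1.20 to 1.91)) and Tk1 (38.6 and 13.4 CPM (log2 1.53, 1.01 to 2.06)) of the S list. Cenpe was at 141 and 72.4 CPM (log2 0.96, 0.72 to 1.20) and Hmmr at 61.2 and 46.7 CPM (log2 0.39, 0.06 to 0.72). In the S list Mcm6 (0.09), Rrm1 (0.39) and Dut (0.57) lay above 0, the first pair with intervals that hold it. Pcna was lower in MI, at 101 and 124 CPM (log2 -0.30, -0.54 to -0.07), as were Slbp (log2 -0.38, -0.69 to -0.07), Mcm3 (log2 -0.92, -1.48 to -0.40) and Ccne2 (log2 -0.72, -1.39 to -0.09). Mcm7, Mcm5, Cdc6 and, in the G2/M list, Bub1b also lay below 0, with intervals that hold it.

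The endothelial comparison depended on which cells were taken. Among those of at most 3000 UMIs, 219 of 468 MI and 1842 of 2145 sham cells, the log2 ratio was -0.38 for the G2/M sum and -0.59 for the S sum, so both directions turned. With the stricter gate the S ratio was -0.011. Without barcodes that end in the letter N, 8 G2/M genes, in place of 3, were at least 2-fold higher. Among the cells of at most 3000 UMIs 8 of 23 G2/M genes and 6 of 16 S genes with enough UMIs were at least 2-fold lower in MI, and 2 and 1 higher. With the stricter gate 3 of 16 S genes were at least 2-fold lower. Shares over all genes were not computed for these alternative sets of cells, so these counts have no such share beside them.

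In mural-gated cells 22 of 29 G2/M genes and 12 of 16 S genes with enough UMIs were at least 2-fold higher in MI and 0 were lower, beside 15.9% and 20.9% of 7518 genes. Each of the 29 G2/M genes had its highest level of the 10 groups in MI mural-gated cells, as did 9 of the 17 S genes. Mki67 stood at 468 CPM (431 to 507) for MI against 157 CPM (105 to 225) for sham (log2 1.58, 1.04 to 2.17). Cenpe stood at 451 CPM for MI against 97.2 CPM for sham (log2 2.21, 1.54 to 2.98), and Top2a at 444 and 162 CPM (log2 1.46, 0.93 to 2.04).

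The other mural G2/M genes covered a wide range. Below the ratios of these 3, Cenpf was at 393 and 269.9 CPM (log2 0.54, 0.12 to 0.99) and Prc1 at 240.2 and 178 CPM (log2 0.43, -0.09 to 1.00). Cks2, Hmmr and Cenpa had log2 ratios of 2.17, 1.80 and 1.71, and Anln, the anillin of the cleavage furrow, 3.80 (1.93 to 6.86), from 2 sham UMIs. Birc5 had 225 UMIs in MI and 0 in sham, a log2 ratio of at least 3.45 against a floor of 3 UMIs over the sham class. Aurkb and Ttk were also at 0 in sham.

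In the mural S list, nucleotide genes summed to 393 CPM for MI against 54.0 CPM for sham (log2 2.86, 1.97 to 3.93), and the MCM genes to 199 CPM for MI against 70.2 CPM for sham (log2 1.51, 0.71 to 2.44), with intervals that overlap. Dut was at 92.6 and 10.8 CPM (log2 3.10, 1.22 to 6.16), Rrm1 at 87.9 and 27.0 CPM (log2 1.70, 0.44 to 3.35) and Tyms at 67.5 and 16.2 CPM (log2 2.06, 0.46 to 4.37), each from 2 to 5 sham UMIs. Rrm2 and Tk1 had 99 and 85 UMIs in MI and 0 in sham, log2 ratios of at least 2.26 and 2.04. Pcna was at 156 and 86.4 CPM (log2 0.85, 0.12 to 1.69), and Slbp lay below 0 at 52.6 and 70.2 CPM (log2 -0.42, -1.29 to 0.57). With a stricter gate, which keeps 126 MI and 65 sham cells, the G2/M log2 ratio was 0.80 in place of 1.52, and 13 of 27 G2/M genes were at least 2-fold higher. The share over all genes was not computed for that gate.

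In lymphoid-gated cells 7 S genes and 10 G2/M genes had 20 UMIs. Of these 0 were at least 2-fold higher in MI, where 9.38% of 3369 genes were, and 2 S genes and 3 G2/M genes were at least 2-fold lower, where 11.5% were. Top2a stood at 185 CPM (144 to 234) for MI against 373 CPM (267 to 508) for sham (log2 -1.01, -1.59 to -0.41), while Mki67 went the other way, at 201 and 159 CPM (log2 0.34, -0.43 to 1.19). Mcm6 stood at 39.7 and 103 CPM (log2 -1.37, -2.59 to -0.10) and Mcm7 at 42.3 and 93.3 CPM (log2 -1.14, -2.37 to 0.16). Cenpf and Cdc20 were the other G2/M genes at least 2-fold lower. The Mcm6 and Mcm7 values rest on 11 and 10 sham UMIs.

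The other lymphoid members named by the rule had intervals that hold 0. Pcna, Slbp and Rrm1 lay at -0.59, -0.37 and -0.38, and Dut (0.55), Tyms (0.68) and Cks1b (0.99) above 0. Stmn1, Cenpe, Birc5, Cenpf and Cenpa lay at -0.76, -0.76, -0.43, -1.08 and -0.63. The class joins T, NK and B cells: split by which markers led, a division made after seeing the data, 144 MI and 38 sham T and NK cells had 1295 and 2498 CPM of G2/M genes, and 81 MI and 26 sham B cells 796 and 71.4 CPM. Without barcodes that end in the letter N, 54 sham cells were left and the G2/M log2 ratio was 0.58 in place of -0.49. With the stricter gate the S ratio was 0.16 in place of -0.40.

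**Figure D4:**
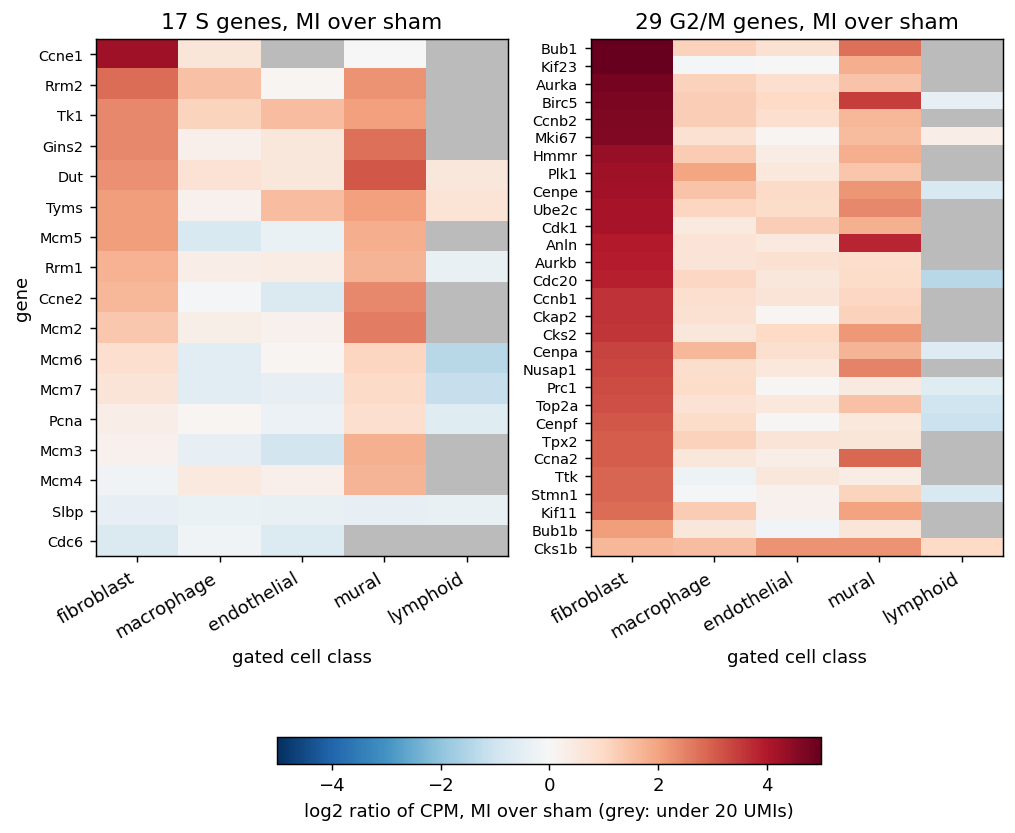
Log2 ratio of CPM, MI over sham, for each of the 17 S genes (left) and 29 G2/M genes (right) in the 5 classes, red for higher in MI and blue for lower; grey marks members under 20 UMIs over both libraries, colour ends at 5 in either direction, and a mural gene with 0 sham UMIs is drawn at its lower bound. The fibroblast column is red for all 29 G2/M genes, while Slbp at -0.41 and Cdc6 at -0.73 are blue there.

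Other genes of the cycle were followed as lists of 37 replication genes, 36 mitosis genes, 8 CDK inhibitors, 6 D cyclins and G1 kinases and 16 RB, E2F and MuvB regulators. In fibroblast-gated cells 29 of 36 mitosis genes were at least 2-fold higher in MI and 0 lower (median log2 2.80), and 19 of 37 replication genes were higher and 0 lower (median 1.04). The condensin ATPases Smc4 and Smc2 lay at 0.99 and 1.30, the centromere chaperone Hjurp at -0.19 and the histone chaperone Nasp at 0.51. Over all genes 13.0% were as much higher and 19.9% lower in this class. In mural-gated cells (all genes: 15.9% higher, 20.9% lower) 20 of 33 mitosis genes and 10 of 25 replication genes were higher and 0 were lower. In macrophage-gated cells (all genes: 9.07% and 12.0%) 6 of 36 and 3 of 36 were higher, with 0 and 1 lower. In endothelial-gated cells (all genes: 11.9% and 14.2%) 7 of 35 and 2 of 33 were higher, with 1 and 2 lower. In lymphoid-gated cells (all genes: 9.38% and 11.5%) 0 of 7 and 1 of 10 were higher, with 0 and 1 lower.

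Among genes that act before S phase, Ccnd1, the D cyclin that carries growth signals into the cycle, was lower in MI fibroblast-gated cells, 37.5 CPM for MI against 335 CPM for sham (log2 -3.16, -3.31 to -3.01). It was also lower in MI macrophage-gated (-1.76), endothelial-gated (-1.94) and mural-gated cells (-1.49). Its kinase partner Cdk4 was higher in MI fibroblast-gated (1.08), endothelial-gated (1.26) and mural-gated cells (1.22). Of the D cyclins and G1 kinases as a list, 1 of 6 in fibroblast-gated cells was at least 2-fold higher and 1 lower, and in macrophage-gated cells 0 and 2.

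The CDK inhibitors, which halt the cycle, did not share 1 direction. Cdkn1a, known as p21, was at 143 and 84.1 CPM (log2 0.76, 0.58 to 0.95) in fibroblast-gated cells, and its ratio was -0.45 in macrophage-gated and -1.67 in endothelial-gated cells. Cdkn1b, known as p27, lay at -0.89 in fibroblast-gated and -0.85 in endothelial-gated cells. Of the 8 inhibitors 3 were at least 2-fold higher in MI fibroblast-gated cells and 0 lower: Cdkn2b (87.9 and 3.90 CPM (log2 4.50, 3.69 to 5.45)), Cdkn2a (log2 5.75, 3.26 to 11.06, from 1 sham UMI) and Cdkn3 (log2 4.53, 2.66 to 7.58, from 2 sham UMIs), named after their values were seen. Cdkn2a and Cdkn2b encode inhibitors of Cdk4, and Cdkn3 a phosphatase made by dividing cells. In macrophage-gated cells 0 were higher and 2 lower. The shares over all genes are those given for these classes with the mitosis and replication lists.

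The RB, E2F and MuvB regulators showed no common direction either. In fibroblast-gated cells 4 of 15 with enough UMIs were at least 2-fold higher and 3 at least as far lower, beside 13.0% and 19.9% of all genes; the pocket protein Rbl2 stood at -1.05 and E2f3 at 0.82. In macrophage-gated cells 2 of 14 were higher and 0 lower, beside 9.07% and 12.0% of all genes.

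An order of the members, by which list led a cell, was read from single cells. A cell was called S-led when it held at least 3 S UMIs from at least 2 genes and more S than G2/M UMIs, and G2/M-led when it held at least 3 G2/M UMIs from at least 2 genes and at least 4 times as many as of S. The gene in question and 5 broadly made genes (Stmn1, Cks1b, Cks2, Slbp and Dut) took no part in the call. Among MI fibroblast-gated cells 309 were S-led and 317 G2/M-led, with median depths of 8472 and 6323 UMIs, and 69.8% of the class had neither list in such number, at a median of 4375.5 UMIs. The calls used all UMIs of a cell, without thinning, so deeper cells pass more easily. Whether S-led cells were in S phase was not tested. Since the other genes of the lists made the call, the values that follow are a description with no test.

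The G2/M genes came in a graded order, given here as CPM in S-led and G2/M-led MI fibroblast-gated cells. Cenpf was at 6.54 and 757 CPM, log2 6.85, and Ccnb1, the cyclin that triggers mitosis, at 1.34 and 122 CPM, log2 6.51. At the other end Cks1b was at 67.3 and 198 CPM, log2 1.55, Cdk1 at 26.3 and 159.8 CPM, log2 2.60 and Stmn1 at 35.5 and 225 CPM, log2 2.67. These last 3 genes were thus present in S-led cells too. Cks1b and Stmn1 are among the broadly made genes, and Cks1b stood at 77.8 CPM over the whole class, so no onset in S phase can be read from this. In S phase Cdk1 is known to partner cyclin A.

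The S genes did not all stand higher in S-led cells. Cdc6 was at 7.75 and 1.73 CPM, log2 -2.16, Ccne2 at 20.4 and 5.59 CPM, log2 -1.87 and Pcna at 135 and 94.3 CPM, log2 -0.52, and Mcm3 and Mcm2 had log2 ratios of -1.11 and -0.76. Of the 5 nucleotide genes 4 lay on the other side: Tk1 was at 24.4 and 85.5 CPM, log2 1.81, Tyms at 58.3 and 124 CPM, log2 1.09, Rrm1 at 72.0 and 136 CPM, log2 0.91 and Rrm2 at 27.7 and 47.0 CPM, log2 0.76. The fifth nucleotide gene, Dut (0.19, -0.06 to 0.44), and the helicase genes Mcm7 (0.39, -0.12 to 0.89) and Mcm5 (0.08, -0.60 to 0.75) had intervals that hold 0.

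The order recurred in part in other cells. In MI macrophage-gated cells (135 S-led and 291 G2/M-led) Rrm2 lay at 0.85 and Cdc6 at -2.57, but Tk1 (0.33, -0.25 to 0.93) and Tyms (-0.25, -1.08 to 0.63) had intervals that hold 0. In sham endothelial-gated cells (68 and 78) Rrm2 lay at 1.93, Tk1 at 1.66 and Cdc6 at -1.66. In MI endothelial-gated cells (47 and 35) Tk1 lay at 3.60, Rrm1 at 3.05 and Rrm2 at 2.70. In sham macrophage-gated cells (47 and 41) Rrm2 lay at 3.57, 0.76 to 9.01, and Tk1 (-0.09, -1.46 to 1.25) had an interval that holds 0. In MI mural-gated cells (22 and 47) Tk1 lay at 1.85, while Rrm2 lay below 0 (-0.24, -1.05 to 0.62) with an interval that holds it. Spearman's rho of the order between MI fibroblast-gated and MI macrophage-gated cells was 0.735 over the 17 S genes and 0.761 over the 29 G2/M genes, the highest of the 15 pairs of groups compared. Over all 15 pairs, of which some had fewer genes with 20 UMIs, the lowest rho was 0.160 (14 S genes) and 0.243 (22 G2/M genes), both between MI mural-gated and sham macrophage-gated cells. These values are a description only: several pairs come from 1 library, and all from 1 way of calling cells.

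**Figure D5:**
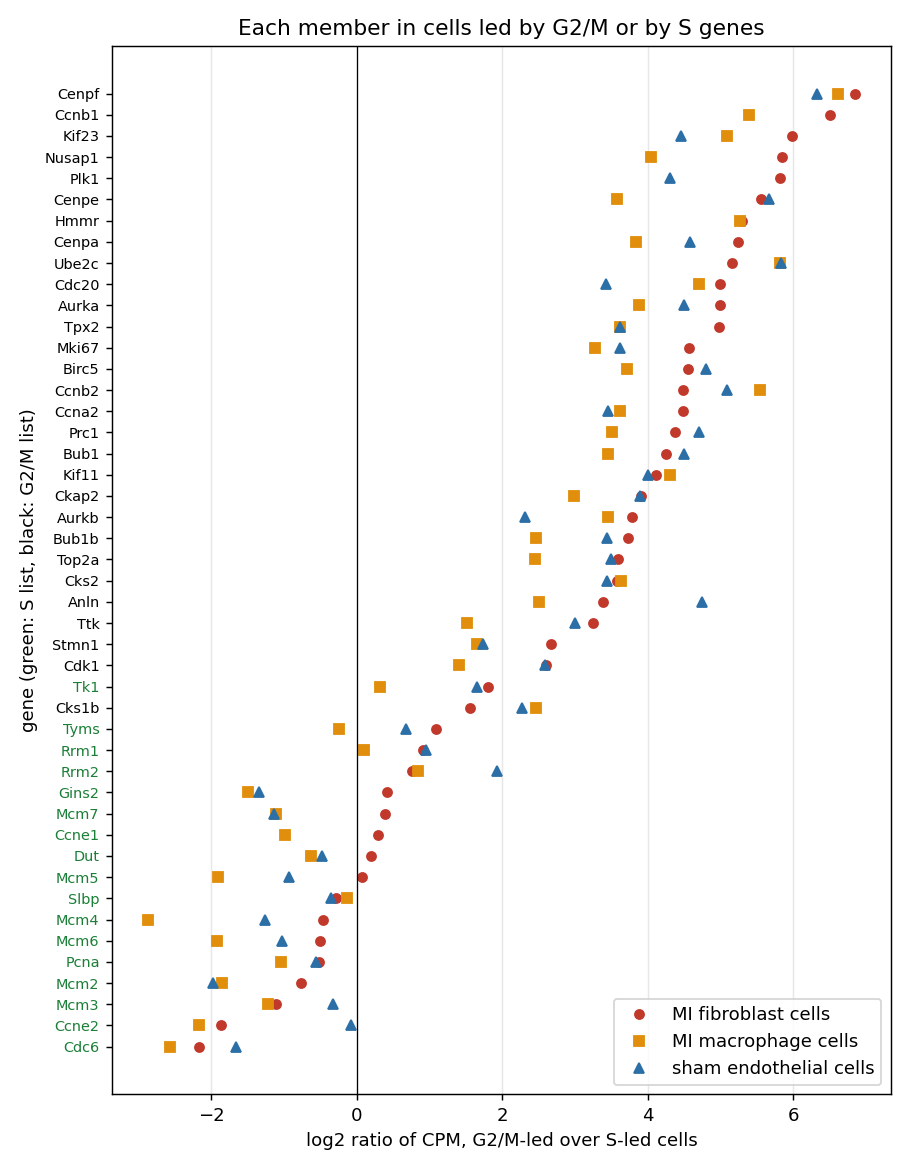
Log2 ratio of CPM in G2/M-led over S-led cells (horizontal axis) for each member, S genes labelled in green and G2/M genes in black, in MI fibroblast (circles), MI macrophage (squares) and sham endothelial cells (triangles); members under 20 UMIs or at a bound are left out. Cenpf lies at 6.85 and Cdc6 at -2.16 in MI fibroblast cells, and Tk1, Tyms, Rrm1 and Rrm2 are the highest S genes there.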

How the data were processed

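Drop-seq data of 2 libraries were read as deposited: 1 table of UMI counts per gene and cell for each library. Per the labels, libraries were amplified with 12 PCR cycles; the submitters' processing notes name the build mm10 and Seurat, and no aligner, counter or annotation is stated (each was not given in the sources used here). In the deposited count tables every barcode has at least 500 genes, so shallower cells were not analysed here.

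Cells with over 25% mitochondrial UMIs and doublets called by Scrublet in scanpy (1.74% of MI and 5.30% of sham cells) were removed. A cell joined a class when its share of class marker UMIs, relative to the median of the top 1% of its library, was at least 0.1 and at least 2 times that of any of the other lists (5 classes and 4 competing lists), from at least 3 UMIs of at least 2 markers. This score was set after looking at marker distributions, without the members' values. Counts were summed per class and library and divided by the class total (CPM). Intervals are 95%: exact Poisson for CPM, Clopper-Pearson for shares, exact conditional binomial for ratios; a level of 0 was replaced by 3 UMIs over the class to give a bound. No p-value was computed, since each condition is 1 library and cells are not replicates. UMIs were counted per gene without stated strand, so overlapping genes may share them.

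The members and lists were chosen with earlier results of these data known. Named genes are, per class, up to 6 S and 8 G2/M members with the most UMIs and at least 20, and members against their list's direction; other lists name up to 3 genes by UMIs. Members named beyond this, for their role or as the ends of a range, were chosen after their values were seen. Promoters matched 39 of 46 members; Gins2, Aurkb, Mcm4, Ccne2, Ccna2, Stmn1 and Tpx2 had no match. The intervals were run on simulated counts drawn independently, the model that they assume. That run cannot show their coverage where UMIs gather in few cells. Alternatives were a stricter gate, doublets kept, at most 10% mitochondrial UMIs and barcodes ending in the letter N left out. Such barcodes numbered 317 in MI and 671 in sham. Further alternatives were classes from Leiden clusters, median-of-ratios scaling, lists without broad genes, thinning to 1000 UMIs and 3 UMIs per call. Python 3.11.15, numpy 2.4.6, scipy 1.17.1, pandas 2.3.3, scanpy 1.11.5, leidenalg 0.10.2, igraph 0.11.9 and matplotlib 3.10.9 were used.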

Additional observations from a re-analysis of the deposited data

Results flagged for a closer look

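In lymphoid-gated cells both list sums were lower in MI than in sham, with log2 ratios of -0.40 for the S genes and -0.49 for the G2/M genes, whereas both were higher in MI in fibroblast-gated and mural-gated cells. The lymphoid direction was not stable: without barcodes ending in the letter N the G2/M ratio was 0.58, and with the stricter gate the S ratio was 0.16. In sham, 4 lymphoid-gated cells held 88.0% of the G2/M UMIs of their class. The difference between the classes was not tested.

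Of the 829 MI cells that no gate took, 161 (19.4%) were counted by G2/M genes at 500 UMIs, against 15 of 286 such sham cells (5.24%). These cells enter none of the gated comparisons above. In the MI cells without a class summed fibroblast markers stood at 2862 CPM and summed macrophage markers at 759 CPM. With classes from clusters the MI fibroblast class held 3312 cells in place of 2615. Its G2/M share was then 13.7% in place of 10.8%. Which class the 161 cells belong to was not tested.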

How the results depend on the processing

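Log2 ratios of MI over sham were recomputed for both list sums and both cell shares in each class. Of these values 141 moved by less than their counting interval and 38 by more. For single genes these counts were 1201 and 81, and 2 more values, at least 2-fold in the main run, changed sign. Sign changes of smaller ratios lie within the other counts and were not counted apart. The fibroblast G2/M sum stayed above 2-fold under every alternative run. With the stricter gate the endothelial S and G2/M sums were -0.011 and 0.40, the mural G2/M sum 0.80, and the lymphoid S and G2/M sums 0.16 and -0.22. At most 10% mitochondrial UMIs gave a lymphoid G2/M sum of -0.14. Without barcodes ending in the letter N the macrophage sums were 0.17 (S) and 1.06 (G2/M). The G2/M sums there were 0.70 (endothelial), 1.32 (mural) and 0.58 (lymphoid). Classes from clusters gave 1.28 and 3.80 (fibroblast), 0.88 and 1.90 (mural) and -0.033 and -0.22 (lymphoid) for S and G2/M, and 0.42 for endothelial G2/M. Median-of-ratios scaling gave 1.25 and 3.72 (fibroblast) and 0.17 and 0.96 (macrophage). Lists without the 5 broad genes gave G2/M sums of 3.73 (fibroblast) and 0.92 (macrophage). Doublets kept, cells thinned to 1000 UMIs and 3 UMIs per call moved none of these values beyond the interval, except that 3 UMIs per call gave no mural S share.

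Alternatives chosen after seeing the data were cells of at most 3000 UMIs and the mean over cells. The first gave S sums of 0.72 (fibroblast), -0.092 (macrophage), -0.59 (endothelial), 0.59 (mural) and -0.82 (lymphoid), G2/M sums of 0.46 (macrophage), -0.38 (endothelial) and 1.10 (mural), and endothelial share ratios of -2.39 (S) and 0.022 (G2/M). Endothelial Cdk1 was then -0.48 and Tk1 at most -0.35, both of changed sign. The second gave 0.91 (fibroblast S), 0.91 (macrophage G2/M), 0.61 (endothelial G2/M) and 1.20 (mural S). The causes were not tested, except that fewer cells entered the stricter sets. Member counts moved with these settings: 8 to 19 of 29 macrophage G2/M genes and 13 of 27 to 25 of 25 mural ones were at least 2-fold higher where the class kept at least 20 such genes. Shares over all genes were computed for the main run only. Ccne2 and Aurkb with the stricter gate and Ttk without barcodes ending in the letter N had bounds below 0 in mural cells and gave no value. No paired analysis was possible because each group is 1 library, and no replicate could be left out. Few cells limit the lymphoid and sham mural values most: 64 and 95 sham cells, with 166 and 291 G2/M UMIs in sham.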
